A study of Homo sapiens with 12 samples.

Results

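The short arm of human chromosome 19 carries long tandem clusters of Krüppel-type zinc finger genes, and 56 listed genes of the 19p12 and 19p13.2 clusters were followed here through A549 and B2B cells with and without 2 inhibitors. The list took 32 genes of 19p12 and 24 genes of 19p13.2 by symbol, and it was chosen by the counts of untreated A549, in which ZNF100 and ZNF440 had none. The count files listed 55 of the 56, out of 26485 genes in all, and ZNF66 was not analysed here. In the hg38 build the 19p13.2 members ran from ZNF627 to ZNF791 (chr19:11559374-12640098) and the 19p12 members from ZNF253 to ZNF254 (chr19:19865882-24129968). Because untreated A549 chose the list, every value of untreated A549 is given as a description with no test. Tests were kept to comparisons that leave those 2 libraries out, although they entered the fit that estimates the spread.

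Most zinc finger genes of these clusters encode a KRAB domain followed by an array of DNA-reading fingers. In the usual account the fingers dock the protein on DNA, often inside a retrotransposon, and the KRAB domain recruits TRIM28 (also called KAP1), which brings the histone methyltransferase SETDB1, HP1 proteins such as CBX5, CBX1 and CBX3, and deacetylases. The clusters grew by repeated local duplication in primates, so neighbours resemble each other in sequence. ZNF91 is known for silencing SVA and ZNF93 for silencing LINE elements.

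A549 is a lung adenocarcinoma line, and B2B (BEAS-2B) is an immortalised line of bronchial epithelium used as the non-cancerous counterpart. Both were labelled WT and were either labelled as untreated (NT, which the study's text describes as DMSO), given the AP-1 inhibitor SR11302 at 10 µM, or given the JNK inhibitor SP600125 at 50 µM, each for 72 h in DMSO. The mRNA libraries numbered 2 in each of the 6 groups. Each line was a single line, so a difference between A549 and B2B is a difference between these 2 lines, and whether the replicate libraries came from separate cultures was not stated, so p-values measure the spread between these libraries only.

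The 12 libraries held between 13969766 and 24917854 reads in genes. Reads outside any gene made up 23.8 to 25.9% in the untreated libraries and 14.6 to 20.1% in the treated ones. These ranges did not overlap, and the part of this difference in the changes against NT was not tested. Sums of marker genes followed the line labels. The 6 A549 markers, among them the epithelial cadherin CDH1 and AGR2, summed to between 14688 and 21652 CPM (counts per 1000000 of the TMM-scaled library size) in A549. In B2B they summed to between 3.04 and 88.0 CPM, the highest of these in B2B_NT replicate 2. The 6 B2B markers, mesenchymal genes such as VIM and SPARC, summed to between 1954 and 4408 CPM in B2B and to between 875 and 1301 CPM in A549. Among 7 blood and endothelial markers, summed at 12.1 to 50.2 CPM, CD3E was at 0 in all 12 libraries. After a filter on low counts, 44 members entered the fit with 16373 genes (22 from each cluster), and 11 did not. A member counts as called when edgeR's adjusted p was under 0.05 and the absolute log2 fold change was at least 0.5. By this rule 4 of the 6 B2B markers were lower in A549 than in B2B under each inhibitor. VIM was called under neither, with means of 1085 CPM in A549 and 826 CPM in B2B under SP600125. COL6A3 was called higher in A549 under SR11302, at means of 0.995 and 0.429 CPM.

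The promoters show how far the 2 clusters share upstream sequence. RefSeq (GRCh38.p14) gave a promoter for 48 of the 56 members. The 9-letter word TGTCACTCA, chosen after the sequences had been read, stood in the 250 bases before the start of 33 of these 48 genes on either strand, in 21 of 25 in 19p12 and 12 of 23 in 19p13.2, against 0.494% of 27305 promoters in RefSeq. The CCAAT word stood in 47 of 48, against 33.0% of all promoters. TGANTCA, a loose form of the AP-1 word with any base at its centre, was present in 1 of 48 members, against 6.60% of all promoters. The 1 member was ZNF564, where it read TGAATCA, and a stricter form was not counted. The related word TGACGTCA was present in 0 of 48, against 1.77%. The 200 bases before the start follow for 5 genes on the coding strand, with TGTCACTCA and CCAAT in capitals. ZNF100 (chr19:21767580-21767779, minus strand) and ZNF440 (chr19:11814073-11814272, plus strand) are the genes that chose the list. ZNF91 (chr19:23395472-23395671, minus strand) and ZNF43 (chr19:21836183-21836382, minus strand) departed from the other members in the comparisons described further on, and ZNF564 (chr19:12551483-12551682, minus strand) is a member that was transcribed in both lines.
ZNF100: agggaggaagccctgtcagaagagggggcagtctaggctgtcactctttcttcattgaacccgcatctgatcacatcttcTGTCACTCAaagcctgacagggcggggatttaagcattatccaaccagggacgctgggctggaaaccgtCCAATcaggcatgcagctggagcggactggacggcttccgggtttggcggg
ZNF91: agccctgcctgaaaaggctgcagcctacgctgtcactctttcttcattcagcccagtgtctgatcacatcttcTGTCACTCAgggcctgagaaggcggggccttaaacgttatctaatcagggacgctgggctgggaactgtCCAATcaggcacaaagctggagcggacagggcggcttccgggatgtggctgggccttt
ZNF43: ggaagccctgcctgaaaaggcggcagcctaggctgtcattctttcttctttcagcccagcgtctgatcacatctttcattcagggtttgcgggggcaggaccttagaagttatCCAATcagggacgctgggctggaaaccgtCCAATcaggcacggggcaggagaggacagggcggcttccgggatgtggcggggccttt
ZNF440: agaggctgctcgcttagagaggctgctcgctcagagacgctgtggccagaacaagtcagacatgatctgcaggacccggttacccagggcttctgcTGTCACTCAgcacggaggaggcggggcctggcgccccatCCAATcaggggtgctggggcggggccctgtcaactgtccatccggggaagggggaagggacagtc
ZNF564: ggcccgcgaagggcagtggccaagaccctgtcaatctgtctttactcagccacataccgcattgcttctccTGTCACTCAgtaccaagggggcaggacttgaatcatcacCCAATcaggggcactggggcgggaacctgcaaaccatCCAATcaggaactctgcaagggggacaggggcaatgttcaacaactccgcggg

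Aligned over the 250 bases, ZNF100 and ZNF43 were identical at 80.4% of positions and ZNF91 and ZNF43 at 82.8%, whereas ZNF100 and ZNF440 reached 57.6%. Over all pairs the median identity was 79.6% within 19p12, 57.6% within 19p13.2 and 56.4% between the clusters. ZNF43 lacked the TGTCACTCA word in this window and carried CCAAT at 2 places. The window used for ZNF43 lies inside its gene span (chr19:21804946-21852125), and the outer start was not examined. The word was present in ZNF440 and in ZNF564 alike, and in ZNF100 and ZNF91 alike. Members carried a median of 10 CG pairs in their promoters, close to the median of 11 over all promoters.

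Counts of ZNF100, a 19p12 gene, were 0 and 0 in A549_NT and 430 and 448 in B2B_NT. Under SR11302 they were 1 and 0 in A549 against 365 and 171 in B2B, and under SP600125 they were 0 and 0 in A549 against 283 and 279 in B2B. The 2 lines did not overlap under any condition. ZNF440, of 19p13.2, had counts of 0 and 0 in A549_NT, 0 and 3 in SR11302-treated A549 and 0 and 0 in SP600125-treated A549. In B2B its counts were 357 and 425 untreated, 324 and 179 under SR11302 and 254 and 220 under SP600125. With both libraries of a group pooled, ZNF100 was at least 147-fold higher and ZNF440 at least 124-fold higher in B2B than in A549 under SP600125, where the A549 libraries had no count and a floor of 3 counts over the group was put in their place. Under SR11302 the single ZNF100 count of A549 gave a ratio of 567 with a counting interval of 101 to 22432, and the 3 ZNF440 counts gave 177 with an interval of 60.3 to 863. These intervals have 95% confidence and, like the floors, cover counting error only. In bulk RNA, fewer expressing cells and less RNA per cell cannot be told apart.

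The 2 genes were not alone. A member was held to be at the floor in a group when its 2 libraries together had at most 3 counts, which corresponds to between 0.0660 and 0.107 CPM depending on the group. In A549 the members at the floor numbered 40 of 55 untreated, 35 under SR11302 and 37 under SP600125. In B2B they numbered 9, 10 and 8. Over all listed genes, 34.9% were at the floor in A549_NT and 35.3% in B2B_NT. Members with no count at all in A549_NT numbered 28, and a further 12 had between 1 and 3 counts, such as ZNF700 with 0 and 1.

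Of the 55 members, 24 were at the floor in all 3 A549 groups and above it in all 3 B2B groups. The 11 of 19p12 were ZNF253, ZNF93, ZNF682, ZNF90, ZNF486, ZNF626, ZNF85, ZNF493, ZNF429, ZNF100 and ZNF730. The 13 of 19p13.2 were ZNF491, ZNF440, ZNF439, ZNF763, ZNF433, ZNF878, ZNF844, ZNF625, ZNF44, ZNF563, ZNF442, ZNF443 and ZNF709. Over all 26485 genes 338 (1.28%) had this pattern, and 565 (2.13%) had the opposite one, in which no member fell. ZNF441, ZNF700, ZNF136, ZNF737, ZNF681 and ZNF726 were at the floor in 1 or 2 of the A549 groups and in no B2B group. At the floor in all 6 groups were ZNF20, ZNF676, ZNF729, ZNF98, ZNF492, ZNF99 and ZNF728. ZNF69 and ZNF257 were at the floor in every A549 group and in 1 B2B group, ZNF208 was above it in SR11302-treated A549 alone, and ZNF43 was at it only in SR11302-treated B2B. The other 14, such as ZNF254, ZNF714 and ZNF627, were above the floor in all 6 groups.

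**Figure D1:**
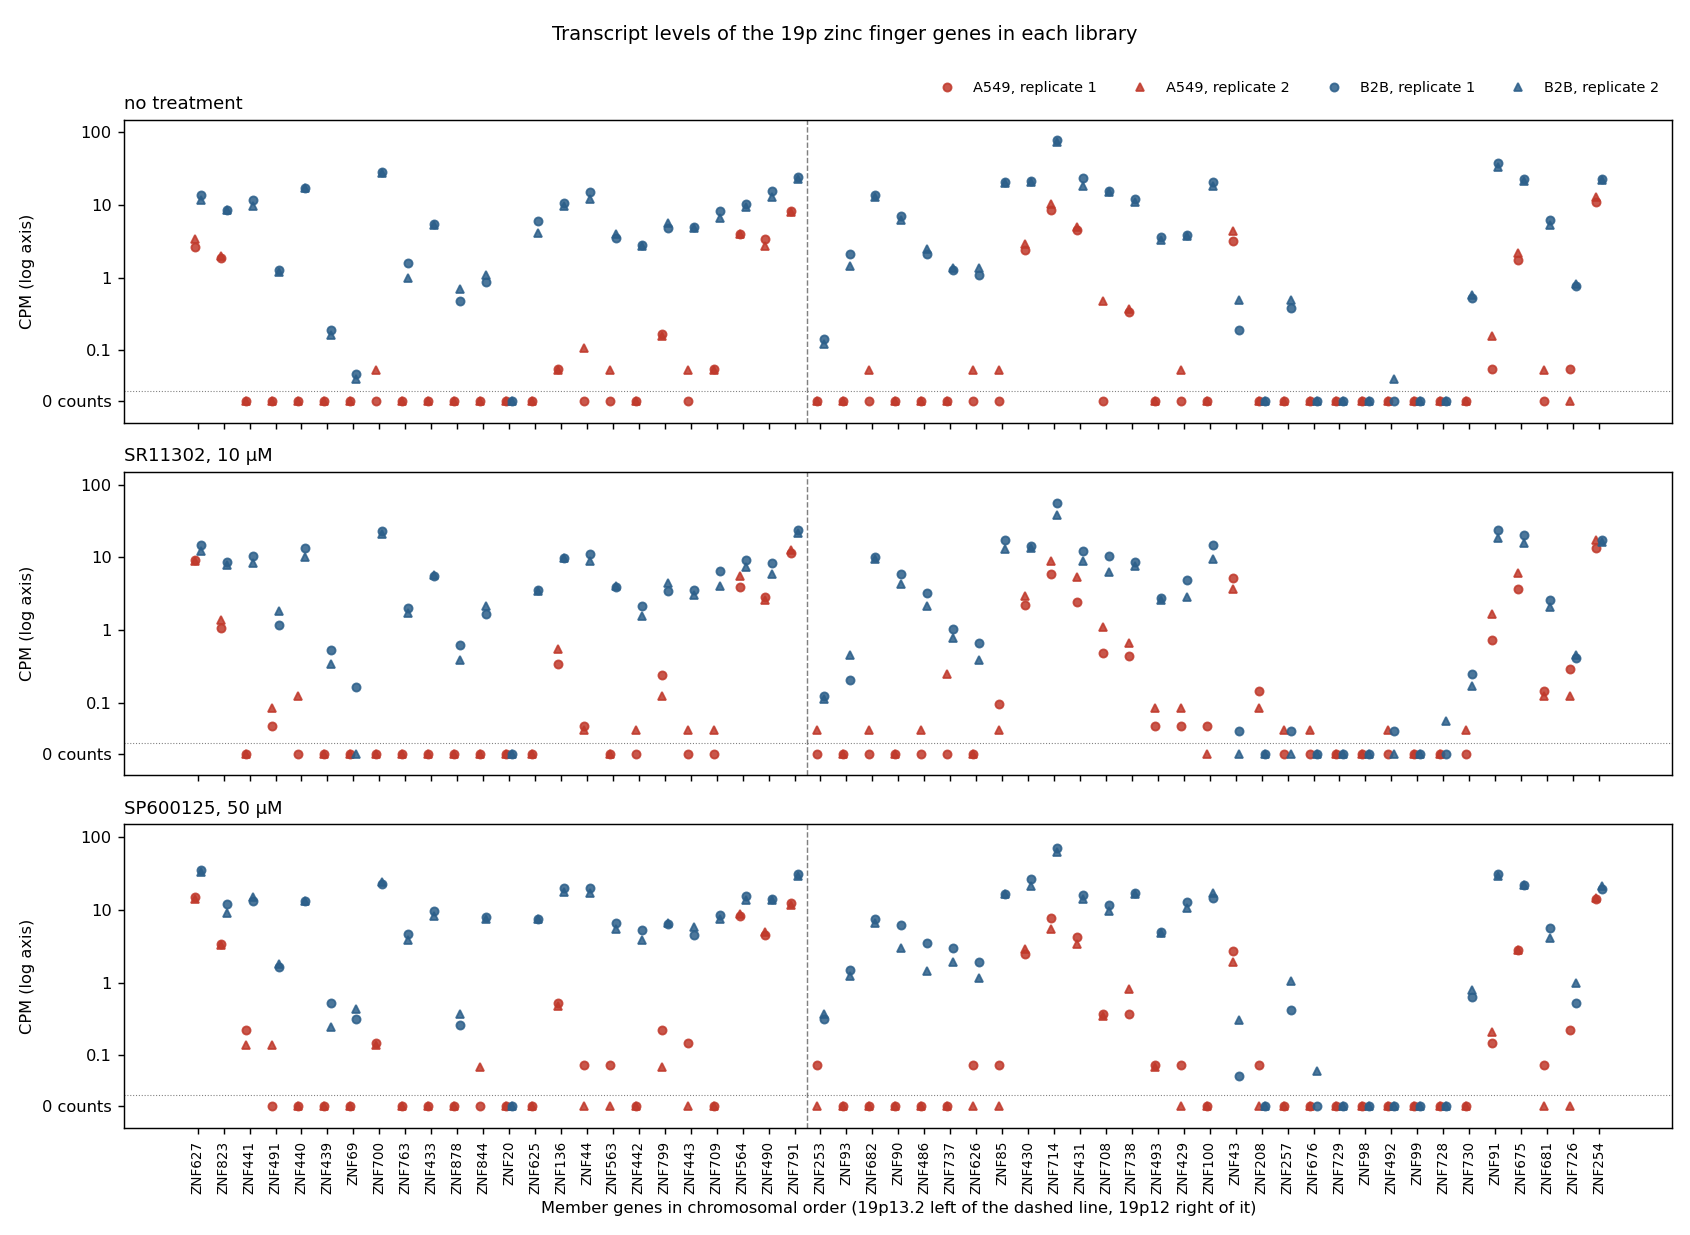
CPM on a log axis for each of the 55 members in chromosomal order, 1 panel per condition, with A549 in red and B2B in blue (circles replicate 1, triangles replicate 2) and libraries without a count drawn on the lowest line. The A549 symbols lie on or near that line for most members in each panel, and the B2B symbols lie well above it for all but 8 to 10 members.

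Levels per kilobase of exon, which allow members to be compared with each other, were highest in B2B_NT for ZNF700 (8.51 CPM per kb ± 0.27, SD, n = 2) and ZNF714 (7.78 ± 0.43). ZNF85 (4.42 ± 0.13), ZNF791 (3.58 ± 0.18) and ZNF708 (3.55 ± 0.10) followed, and the last 2 did not differ beyond their spread. In A549_NT the highest were ZNF254 (1.57 ± 0.18), ZNF791 (1.24 ± 0.04) and ZNF564 (1.10 ± 0.02), followed by ZNF714 (0.961 ± 0.137) and ZNF627 (0.796 ± 0.156). ZNF791, ZNF714, ZNF823 and ZNF627 were the 4 members among the 8 highest per kilobase in both untreated lines. The summed level of the 31 measured 19p12 members was 35.4 CPM ± 5.2 (SD, n = 2) in A549_NT and 307 ± 18 in B2B_NT, and that of the 24 members of 19p13.2 was 20.6 ± 0.1 and 189 ± 13.

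Under SR11302, where no library that chose the list was involved, 41 of the 44 tested members were lower in A549 than in B2B and 1 was higher. Over all 16373 genes 26.6% were called lower and 29.9% higher. All 22 tested members of 19p13.2 and 19 of 22 in 19p12 were lower, with medians of -6.60 and -3.96 on the log2 scale beside 0.05 over all genes tested. Members reached the test only where some group had enough counts, so the 44 are not a sample of the 55. Tested members at the floor in every A549 group passed this filter through B2B alone. So did members with few A549 reads, such as ZNF700 and ZNF441, whose highest A549 group means were 0.143 and 0.181 CPM. For all of these a lower value in A549 was fixed in advance. ZNF700 had 0 and 0 counts in A549 and 565 and 378 in B2B, at least 332-fold higher in B2B. ZNF441, at 0 and 0 counts in A549, was at least 143-fold higher in B2B, ZNF433 at least 82.9-fold and ZNF90 at least 76.9-fold. No p-value is given for ZNF700, ZNF441, ZNF433 and ZNF90, whose direction the filter had fixed. These were the members with the largest fitted falls, and none of them had a read in SR11302-treated A549. ZNF254 (17.5 and 16.5 CPM in B2B, 13.5 and 17.6 in A549) and ZNF726 were the 2 members not called. For ZNF254 the A549 value was 92.0% of the B2B value, and the lines overlapped. Without B2B_SR11302 replicate 1 the calls of ZNF627 and ZNF730 were lost, and that of ZNF730 was also lost without A549_SR11302 replicate 1.

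Under SP600125 the count was 42 lower and 1 higher of 44, against 28.2% and 30% of all genes. The limit on members at the floor or with few reads in A549 holds here as well. ZNF254 was the member not called, at 14.2 and 14.6 CPM in A549 and 19.1 and 21.4 CPM in B2B. Its log2 difference of -0.490 ± 0.155 (SE, adjusted p = 0.0125, edgeR) missed only the fold minimum, and the lines did not overlap. The lowest fitted values belonged to ZNF100, ZNF440, ZNF433 and ZNF709, each at 0 counts in both A549 libraries, with ZNF433 at least 84.0-fold higher in B2B. ZNF433 had 322 counts over the 2 B2B libraries. The calls of ZNF726 and ZNF878 were lost without A549_SP600125 replicate 2, and that of ZNF726 also without B2B_SP600125 replicate 2.

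The members that were nearly silent in A549 lay next to each other. A member was called low when the A549 level was under 5% of the B2B level under both inhibitors, and measured when B2B was above the floor under both. In 19p13.2, 18 of the 23 measured members were low, and they formed 1 stretch from ZNF441 to ZNF709 interrupted only by ZNF20, which had no read in any library. The first part held 10 members from ZNF441 to ZNF844 (chr19:11767000-12081565) and the second held 8 from ZNF625 to ZNF709 (chr19:12142090-12513854). Members at both ends of the cluster were not low. ZNF627 in A549 was at 65.9% of B2B under SR11302 and 42.5% under SP600125, and ZNF823 was at 14.9% and 30.5%. At the other end ZNF564 was at 56.7% and 58.6%, ZNF490 at 37.7% and 33.9% and ZNF791 at 52.8% and 39.6%.

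In 19p12 the low members were 9 of 22 measured. They were broken into 3 stretches, of 4 from ZNF93 to ZNF486, 2 from ZNF626 to ZNF85, and 3 from ZNF493 to ZNF100. The break between the first and the second stretch was ZNF737, at 14.5% under SR11302 on 6 A549 counts and at 0% under SP600125. ZNF253, before the first stretch, passed 5% on 2 counts over the treated A549 libraries. These breaks thus rest on few reads. Between the second and the third stretch lay 5 members, ZNF430, ZNF714, ZNF431, ZNF708 and ZNF738, that passed 5% under at least 1 inhibitor. ZNF430 was at 18.4% and 11.1% of B2B and ZNF431 at 36.7% and 25.2% under SR11302 and SP600125, respectively. The 9 members from ZNF43 to ZNF728 could not be placed, since B2B was at the floor under 1 or both inhibitors. The last 6 members, from ZNF730 to ZNF254 (chr19:23075210-24129968), were not low. ZNF254 was at 92.0% of B2B under SR11302 and 71.5% under SP600125. ZNF91 and ZNF681 passed 5% narrowly under SR11302, at 5.63% and 5.62%, and were at 0.595% and 0.730% under SP600125, and ZNF730 passed it on 1 A549 count. Of the promoters, TGTCACTCA was present in 20 of 26 low members and 9 of 16 that were not low, and no test was made of that difference.

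ZNF43 ran the opposite way and was the only member called higher in A549. Its counts were 57 and 84 in A549_NT against 4 and 12 in B2B_NT, 108 and 89 against 1 and 0 under SR11302, and 37 and 28 against 1 and 5 under SP600125. The lines did not overlap under any condition. ZNF43 passed the filter on low counts through A549, since its highest B2B group mean was 0.340 CPM. A higher value in A549 was thus fixed in advance, and no p-value is given. The fitted log2 difference was 3.74 ± 0.60 (SE) under SP600125. Under SR11302, where B2B had 1 count in all, the ratio of A549 to B2B was 186 with a counting interval of 33.0 to 7394. Its neighbour ZNF100, whose promoter was identical to that of ZNF43 at 80.4% of positions, had the reverse pattern, and the next member on the other side, ZNF208, had no count in B2B.

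In B2B, SR11302 lowered members of 19p12 in the main. Against NT, 11 of the 44 tested members fell and 1 rose, beside 11.1% and 11.4% of all genes. Of the 11, 10 were in 19p12 (10 of 22 tested) and 1 in 19p13.2, and the cluster medians were -0.61 and -0.18 on the log2 scale beside 0.01 over all genes. The difference between the clusters was not tested, here or under SP600125. ZNF93, the LINE repressor, was at 2.16 and 1.47 CPM in B2B_NT and at 0.206 and 0.451 CPM under SR11302, a log2 change of -2.50 ± 0.49 (SE, adjusted p = 0.00334, edgeR). ZNF681 went from 6.32 and 5.29 CPM to 2.63 and 2.08 CPM (-1.28 ± 0.26, adjusted p = 0.00253), and ZNF490 of 19p13.2 from 15.9 and 13.1 CPM to 8.31 and 5.86 CPM (-1.02 ± 0.18, adjusted p = 0.00118). In each of these 3 the groups did not overlap. ZNF43 fell from 4 and 12 counts to 1 and 0 (adjusted p = 0.0316).

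ZNF91, the SVA repressor, was at 37.5 and 32.9 CPM in B2B_NT and 24.3 and 18.8 CPM under SR11302, a log2 change of -0.70 ± 0.19 (adjusted p = 0.0130, edgeR). ZNF714, ZNF431, ZNF708, ZNF430, ZNF738 and ZNF100 fell by 0.51 to 0.94 on the log2 scale. The summed 19p12 level was 320 and 294 CPM in the B2B_NT libraries and 229 and 175 CPM under SR11302. The SR11302 libraries stood below both controls but also apart from each other, and the count of members that fell depended on single libraries. It was 3 without B2B_SR11302 replicate 2, 4 without B2B_NT replicate 1 and 5 without B2B_NT replicate 2, the B2B library with the highest sum of A549 markers. ZNF93, ZNF681 and ZNF490 were the 3 that were called under each alternative. ZNF844 was the member that rose (0.862 and 1.10 CPM to 1.69 and 2.14 CPM, log2 change 0.94 ± 0.32, adjusted p = 0.0462), and its call was lost without any 1 of the 4 libraries, with a replicate block and with DESeq2.

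SP600125 in B2B raised 10 members and lowered 1, ZNF682, beside 21.2% and 22.6% of all genes called higher and lower. Of the 10, 8 were in 19p13.2 (8 of 22 tested, median log2 change 0.47) and 2 in 19p12 (2 of 22, median -0.17, beside 0.01 over all genes). The share of 19p13.2 was 36.4% and that of all members 22.7%, the latter near the 21.2% of all genes. ZNF844 was at 0.862 and 1.10 CPM in B2B_NT and 7.95 and 7.49 CPM under SP600125, a log2 change of 2.96 ± 0.29 (SE, adjusted p = 5.90e-06, edgeR). ZNF763, which lies in the same stretch, went from 1.58 and 0.977 CPM to 4.73 and 3.83 CPM (1.76 ± 0.32, adjusted p = 0.000901). ZNF627 went from 13.8 and 11.9 CPM to 35.7 and 32.7 CPM (1.41 ± 0.15, adjusted p = 4.92e-06). Controls and treated libraries did not overlap for any of the 3.

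In 19p12, ZNF429 rose from 3.83 and 3.79 CPM to 12.7 and 10.8 CPM (1.63 ± 0.25, adjusted p = 0.000121, edgeR), while ZNF682 fell from 13.8 and 12.8 CPM to 7.38 and 6.51 CPM (-0.93 ± 0.19, adjusted p = 0.00111). ZNF136, ZNF433, ZNF442, ZNF563, ZNF564 and ZNF738 rose by 0.54 to 0.90 on the log2 scale. Without B2B_NT replicate 2 or without B2B_SP600125 replicate 1 the members that rose numbered 5. ZNF844, ZNF763, ZNF429, ZNF627, ZNF136 and ZNF682 were called under each alternative. Both inhibitors were set against the same 2 untreated libraries, so their changes share those controls. PECAM1, an endothelial marker, moved in the same libraries, from 0 and 0 CPM in B2B_NT to 3.59 and 4.87 CPM under SP600125. The blood and endothelial list as a whole had 3 of its 4 tested genes higher and 1 lower, and summed to 12.1 and 12.3 CPM in B2B_NT and 12.7 and 19.5 CPM under SP600125. CD3E was at 0, and the part of this list in the rise of the zinc finger genes was not tested.

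**Figure D2:**
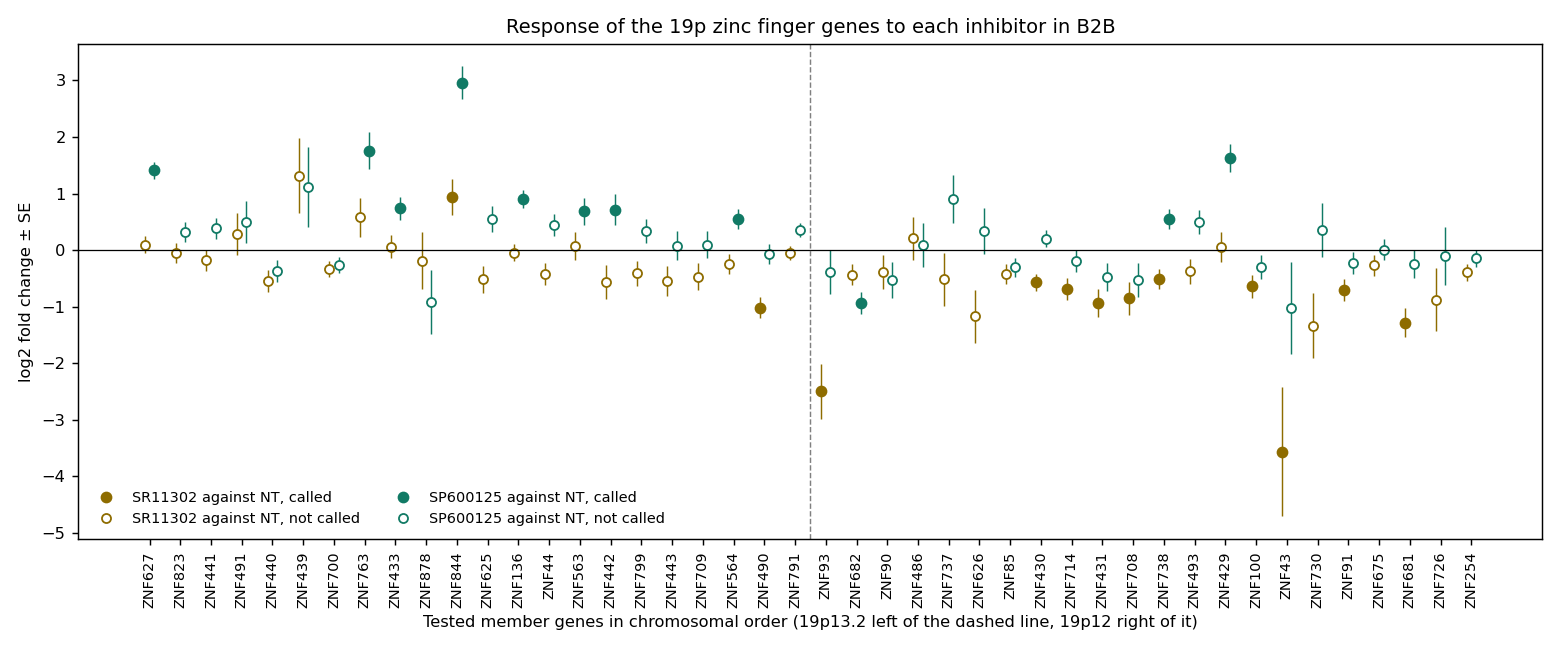
Log2 fold change against untreated B2B (points, with SE bars) of the 44 tested members in chromosomal order, for SR11302 in brown and SP600125 in green, with filled points for called members. Filled green points lie above 0 mostly left of the dashed line, in 19p13.2, and filled brown points lie below 0 mostly right of it, in 19p12.

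Set against each other within B2B, the 2 inhibitors left 21 members higher under SP600125 than under SR11302 and 0 lower, beside 15.6% and 18.1% of all genes. In the lower direction 1 member had an unadjusted p under 0.05, and DESeq2 called 0 lower and 14 higher. The 21 were 12 of 22 in 19p13.2 and 9 of 22 in 19p12, with medians of 0.66 and 0.63 on the log2 scale and 0 over all genes. Among the called members the largest differences were in ZNF93 (2.11 ± 0.51, adjusted p = 0.00710), ZNF844 (2.02 ± 0.27, adjusted p = 0.000102), ZNF730 (1.69 ± 0.57, adjusted p = 0.0318) and ZNF429 (1.58 ± 0.25, adjusted p = 0.000253), all by edgeR. ZNF93 was the member with the low SR11302 level described above, and ZNF429 the one with the high SP600125 level. Without B2B_SP600125 replicate 1 the count was 12 in place of 21, and the call of ZNF93 was then lost, as it was without B2B_SR11302 replicate 1. The call of ZNF730, which had between 0.169 and 0.791 CPM in the 4 libraries, was lost on leaving out any of them. The doses and targets of the inhibitors differ, so this compares 2 treatments as given.

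In A549, where most members were at or near the floor, 6 of the 44 tested members (13.6%) were higher and 3 (6.82%) lower under SP600125 than under SR11302. Both shares lay below the 16.6% and 20.5% of all genes. The 6 were all in 19p13.2 and the 3 all in 19p12, and this difference between the clusters was not tested. ZNF823 was at 1.07 and 1.38 CPM under SR11302 and 3.35 and 3.24 CPM under SP600125 (1.41 ± 0.25, adjusted p = 0.000514, edgeR). ZNF564 was at 3.88 and 5.61 against 8.27 and 8.75 CPM (0.83 ± 0.20, adjusted p = 0.00387), and ZNF627 at 9.27 and 9.04 against 15.1 and 14.1 CPM (0.67 ± 0.16, adjusted p = 0.00377). The groups did not overlap in any of these. ZNF490 differed by 0.77 ± 0.23 (adjusted p = 0.0141), a call lost without A549_SR11302 replicate 2 or A549_SP600125 replicate 2. ZNF441 and ZNF700 were also called higher but had no read in SR11302-treated A549 and 5 and 4 counts over the 2 SP600125 libraries, and both calls were lost without A549_SR11302 replicate 1, A549_SR11302 replicate 2 or A549_SP600125 replicate 1.

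ZNF91 had 1 and 3 counts in A549_NT, 15 and 40 under SR11302 and 2 and 3 under SP600125, so that its level under SR11302 stood apart from both other A549 groups and remained at 5.63% of B2B. It was lower under SP600125 than under SR11302 by a log2 difference of -2.73 ± 0.60 (adjusted p = 0.00214, edgeR), and it was called under each alternative. ZNF675, which encodes an inhibitor of TRAF6 signalling, was at 3.69 and 6.19 CPM under SR11302 and 2.83 and 2.83 CPM under SP600125 (-0.81 ± 0.26, adjusted p = 0.0189). ZNF43 differed by -0.93 ± 0.35 (adjusted p = 0.0425). The calls of ZNF675 and ZNF43 were lost on leaving out either SP600125 library, that of ZNF675 also without A549_SR11302 replicate 2 and that of ZNF43 without A549_SR11302 replicate 1. The 2 SR11302 libraries of A549 agreed less well than those of any other group (r = 0.979 for log2 CPM across 11149 genes, against 0.991 to 0.997).

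Marker genes moved in the same A549 libraries. Of the 6 B2B markers, 3 were lower under SP600125 than under SR11302 and none higher: SPARC had means of 8.65 and 31.9 CPM, CDH2 of 18.0 and 65.7 CPM and SNAI2 of 0.183 and 0.891 CPM. In A549_NT, as a description, these 3 were at 3.70, 11.0 and 0.106 CPM, so that, like ZNF91, they were highest under SR11302. The other B2B markers were not called. COL1A2 ran the other way, at means of 0.172 CPM under SP600125 and 0 under SR11302. COL6A3 was at 0.396 and 0.995 CPM and VIM at 1085 and 1134 CPM, in the same order. The list as a whole, which VIM dominates, summed to 956 and 875 CPM in A549_NT, 1301 and 1166 under SR11302 and 1160 and 1064 under SP600125. Of the 6 A549 markers, 3 were higher under SP600125, among them CDH1 (log2 difference 1.95 ± 0.19). Of the 4 tested blood and endothelial genes, VWF (6.63 ± 0.51), CDH5 (6.52 ± 0.72) and PECAM1 (5.35 ± 0.42) were higher under SP600125 and CD68 was lower (-3.78 ± 0.20), and the 7 genes of that list summed to 44.9 and 50.2 CPM under SR11302 and 18.3 and 17.4 under SP600125. The part of these markers in the zinc finger values was not tested.

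Whether the inhibitors differed from each other to another extent in A549 than in B2B was tested by the interaction, in which 2 members were higher and 2 lower, beside 7.36% and 8.76% of all genes. ZNF91 had the firmest value, with a log2 difference of -2.73 in A549 and 0.48 in B2B and an interaction of -3.21 ± 0.62 (adjusted p = 0.00343, edgeR). ZNF675 had -0.81 and 0.27 (interaction -1.08 ± 0.32, adjusted p = 0.0333) and ZNF823 had 1.41 and 0.38 (1.04 ± 0.31, adjusted p = 0.0348). ZNF700 was the last of the 4 (adjusted p = 0.0428) and rested on 4 A549 reads. ZNF91 was called under each alternative, and the other 3 calls were each lost on leaving out any of 6 of the 8 libraries. The exceptions were A549_SR11302 replicate 1 and B2B_SR11302 replicate 1 for ZNF675, A549_SR11302 replicate 2 and B2B_SP600125 replicate 1 for ZNF823, and B2B_SR11302 replicate 2 and B2B_SP600125 replicate 2 for ZNF700. Without A549_SR11302 replicate 1 the members called lower numbered 6.

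**Figure D3:**
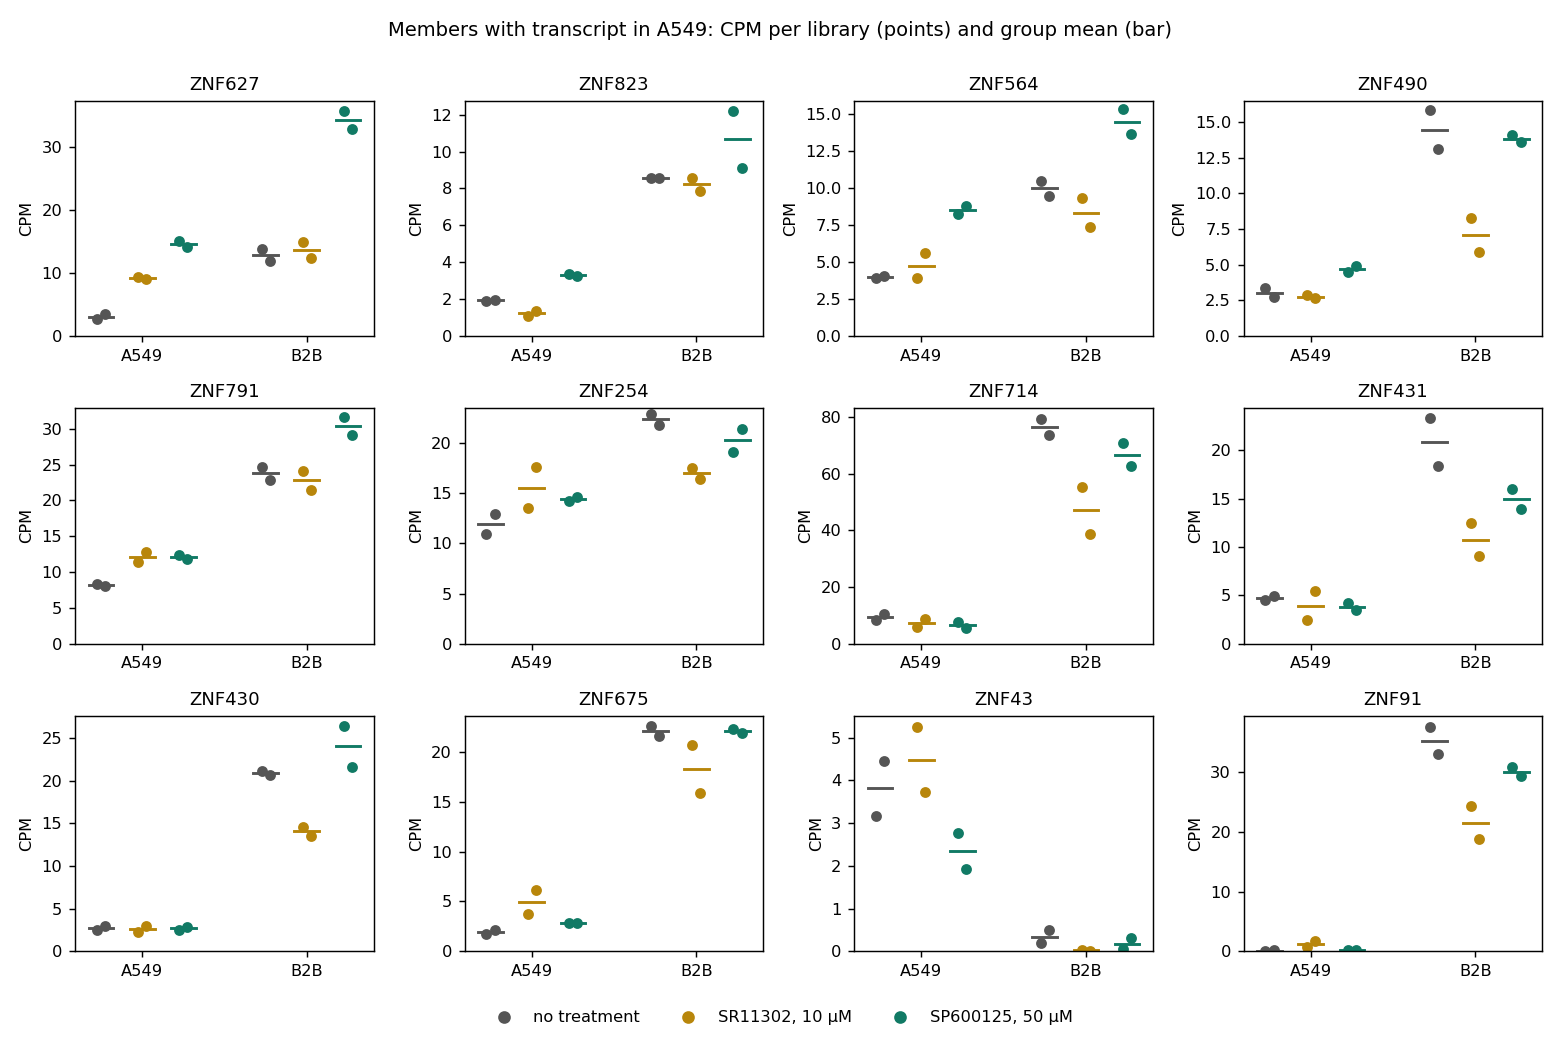
CPM of 12 members with transcript in A549, with a point per library and a bar for each group mean, for A549 (left) and B2B (right) and for no treatment (grey), SR11302 (gold) and SP600125 (green); each panel has its own axis from 0. ZNF627 and ZNF564 are highest under SP600125 in both lines, ZNF43 is the panel in which A549 lies above B2B, and ZNF91 lies near 0 in A549.

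Levels of untreated A549 are set beside the treated ones as a description only. ZNF627 was at 2.61 and 3.45 CPM in A549_NT, 9.27 and 9.04 under SR11302 and 15.1 and 14.1 under SP600125. ZNF136 had 1 and 1 counts in A549_NT, 7 and 13 under SR11302 and 7 and 7 under SP600125. Most of the silent members stayed at the floor, 35 of 55 members under SR11302 and 37 under SP600125. The summed 19p13.2 level in A549 was 20.5 and 20.7 CPM untreated, 29.2 and 32.5 under SR11302 and 45.0 and 43.8 under SP600125, and that of 19p12 was 31.8 and 39.1, 35.6 and 49.2, and 35.9 and 32.5 CPM. In B2B the 19p13.2 sum was 198 and 180 CPM untreated, 168 and 146 under SR11302 and 262 and 245 under SP600125.

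Other KRAB zinc finger clusters of chromosome 19 show where the 19p genes stood. In 19q13.41, 24 of 35 tested genes (68.6%) were lower in A549 than in B2B under SR11302 and 29 of 35 (82.9%) under SP600125. Over all genes 26.6% and 28.2% were lower. Some 19q13.41 genes also passed the filter on low counts through B2B alone, such as ZNF320 and ZNF577, at 0 CPM in A549 under both inhibitors. For them the lower value in A549 was fixed in advance. In 19q13.41 2 genes were higher under each. In 19q13.31 the lower genes were 5 and 6 of 18 (27.8% and 33.3%, near the shares of all genes). Another 3 and 2 were higher (16.7% and 11.1%, below the 29.9% and 30% of all genes). Under SP600125 in B2B, 14 of 18 genes of 19q13.31 and 19 of 35 of 19q13.41 rose and none fell. Over all genes 21.2% rose and 22.6% fell. In 19p13.2 8 of 22 rose, and in 19p12 2 of 22. Under SR11302 in B2B 8 of 35 genes (22.9%) fell in 19q13.41 and 1 of 18 (5.56%) in 19q13.31, beside 11.1% of all genes, and none rose. The differences between clusters were not tested.

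**Figure D4:**
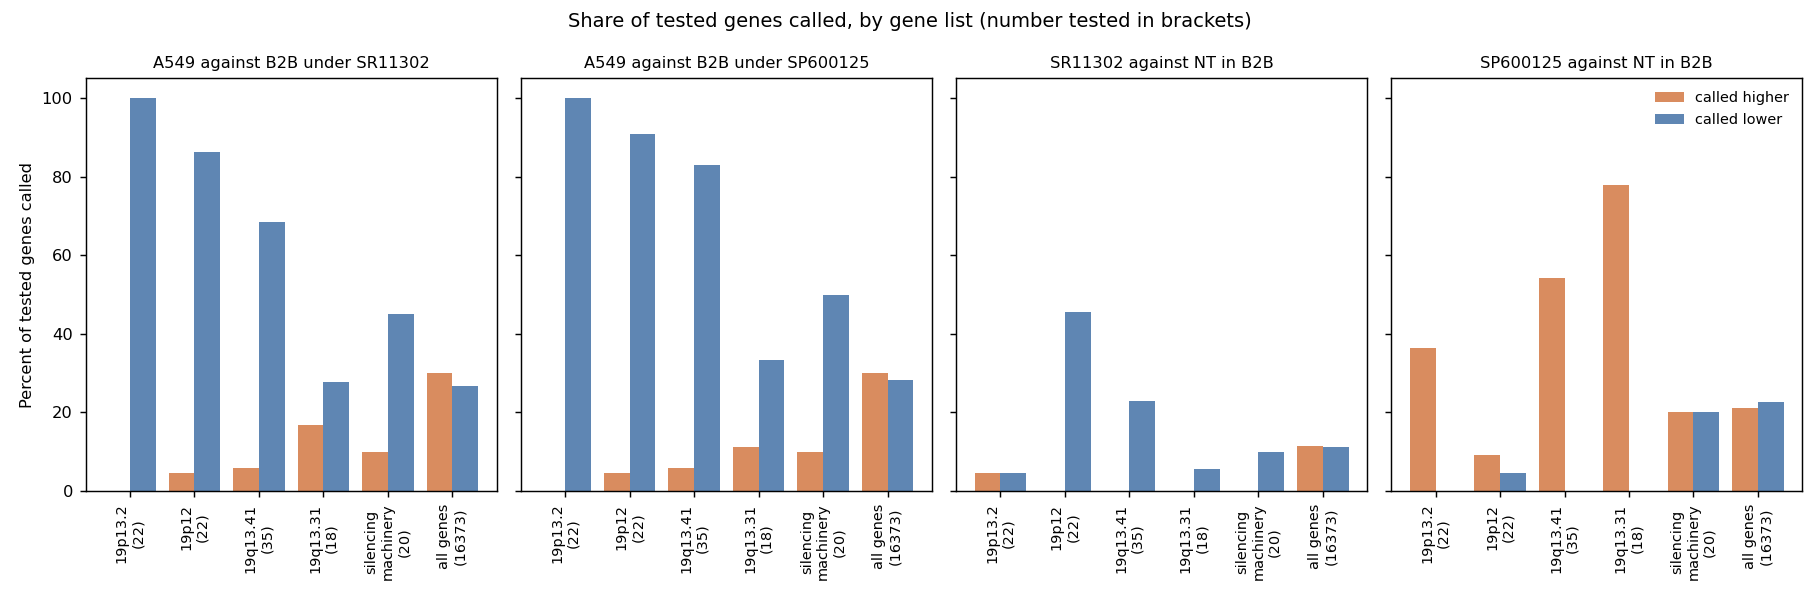
Percent of tested genes called higher (orange) and lower (blue) in 4 comparisons, for 5 gene lists and for all 16373 genes tested. The 2 line comparisons show the 19p13.2, 19p12 and 19q13.41 lists with most genes lower in A549, and the SP600125 panel shows the 19q lists with the largest shares higher in B2B.

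The cofactors that KRAB proteins work through were measured in both lines. Of 20 machinery genes, all tested, 9 were lower and 2 higher in A549 than in B2B under SR11302, and 10 lower and 2 higher under SP600125. That is 45% and 50% lower, beside 26.6% and 28.2% of all genes, and 10% higher under each, beside 29.9% and 30%. TRIM28, the KRAB corepressor itself, was at 892 and 584 CPM in A549 and 442 and 508 CPM in B2B under SR11302 (log2 difference 0.64 ± 0.16, adjusted p = 0.00298, edgeR), and CBX3, an HP1 protein, was also higher (0.56 ± 0.12). CBX1, another HP1 protein, was lower by -1.99 ± 0.10 and UHRF1, which reads hemimethylated DNA, by -1.64 ± 0.16. Under SP600125 UHRF1 (-2.65 ± 0.18) and DNMT1, the maintenance DNA methyltransferase (-1.39 ± 0.12), were the lowest, and the de novo methyltransferase DNMT3B (1.50 ± 0.12) and CBX3 (0.89 ± 0.13) were higher. SP600125 in B2B raised ATF7IP (0.76 ± 0.15) and HDAC1 (0.66 ± 0.10), and SETDB1 by 0.56 ± 0.11, and lowered UHRF1 (-1.67 ± 0.16) and CBX1 (-0.76 ± 0.10), with 4 of 20 called each way, near the 21.2% and 22.6% of all genes. SR11302 in B2B lowered UHRF1 (-0.80 ± 0.15) and CBX3 (-0.53 ± 0.12) and raised none. Within A549, TRIM28 was lower under SP600125 than under SR11302 by -0.87 ± 0.16.

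Sequence likeness limits how reads are assigned within these clusters, since reads that map to several places are not counted. Of all 50-base windows in the exons of a member, a median of 93.0% occurred nowhere else in the hg38 chromosomes on either strand, from 52.5% in ZNF98 to 99.9%, and 17 of 56 members had at least 95%. Among the 15 tested members of these 17, all 15 were lower in A549 under either inhibitor. Over all genes 26.6% were lower under SR11302 and 28.2% under SP600125. For members at the floor or with few reads in A549 this direction was fixed by the filter, so the count is no check on read assignment. In B2B 5 of the 15 rose and 1 fell under SP600125, beside 21.2% and 22.6% of all genes, and 1 fell under SR11302, beside 11.1%. Several members overlap other gene models on their strand, with ZNF625, ZNF709 and ZNF564 sharing 83.2%, 79.4% and 69.9% of their exon bases. ZNF20 shared 54.0%, ZNF490 51.1%, ZNF844 45.3% and ZNF763 44.5%. The levels of all these members are uncertain. ZNF20 overlaps ZNF625-ZNF20, and the part of dropped reads in its lack of counts was not tested. Of the overlapping models, ZNF625-ZNF20 was listed in the count files. Whether the models over ZNF709, ZNF564, ZNF490, ZNF844 and ZNF763 took part in the counting is not known. The read-through gene ZNF625-ZNF20 had 0 counts in all 6 A549 libraries and 9 to 34 in the B2B libraries. ACP5, an acid phosphatase gene inside the 19p13.2 span, was higher in A549 under SR11302, at 12 and 21 counts against 2 and 6 in B2B (log2 difference 1.90 ± 0.71, adjusted p = 0.0297, edgeR). It was not called under SP600125 (1.23 ± 0.82, adjusted p = 0.198), and untreated its counts were 11 and 10 in A549 and 4 and 12 in B2B.

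Exon GC content was low in the members, with a median of 38.0% against 48.2% over the tested genes with a value. Across 14856 genes, which are not independent replicates, the fold change was related to GC content with Spearman's rho of -0.350 for SP600125 against SR11302 in A549 and -0.241 in B2B. For the other comparisons of B2B it was 0.132 for SR11302 and -0.119 for SP600125 against NT, and it was -0.03 and -0.09 for the 2 line comparisons under SR11302 and SP600125. The part of GC content in the differences between treatments was not tested.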

How the data were processed

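mRNA was sequenced from 12 libraries (KAPA mRNA HyperPrep kit). The authors mapped reads to hg38 with STAR (v.2.7.10a) and deposited whole-number counts per gene made with HTSeq (v.1.99.2), which drops reads that map to several places or to overlapping genes. The gene annotation, read length and strand setting of the counting are not stated. Controls are untreated by their labels but DMSO-treated in a legend of the study. Groups came from the labels. Summary rows (no feature, ambiguous, not unique) were left out of library sizes. All 12 libraries entered one edgeR (v.4.0.16) quasi-likelihood fit with TMM scaling, filterByExpr and Benjamini-Hochberg adjustment over 16373 genes, and the code was tested on simulated data. CPM are counts per 1000000 of the TMM-scaled library size, pooled over both libraries for ratios. Exons were merged from GENCODE in hg38. The first RefSeq promoter listed per gene was used. The 50-base window is an assumption. Alternatives were other scalings, no filter, a replicate block, only the groups compared, DESeq2 (v.1.42.0), no fold minimum, other floors and leaving out each library. Named genes are ZNF100 and ZNF440, members at the floor in A549 but not in B2B, up to 4 called members per direction and comparison, the 5 highest per line, and up to 2 machinery genes per direction. Calls against untreated A549, which chose the list, were planned as a description and are not reported. Others (SETDB1 and further members) were named after their values were seen. The members and lists were chosen with earlier results of these data known.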

Additional observations from a re-analysis of the deposited data

Results flagged for a closer look

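For 4 members the difference between SP600125 and SR11302 was not the same in A549 and in B2B by edgeR's interaction test. ZNF91 had an interaction (A549 minus B2B) of -3.21 ± 0.62 (SE, adjusted p = 0.00343) on the log2 scale, ZNF675 of -1.08 (adjusted p = 0.0333), ZNF823 of 1.04 (adjusted p = 0.0348) and ZNF700 of 4.45 (adjusted p = 0.0428). The value of ZNF700 is a fitted one that rests on 0 A549 reads under SR11302 and 4 under SP600125, and it is no bound.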

How the results depend on the processing

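No result changed direction under any alternative. Of the members called in the line comparisons, 40 of 42 under SR11302 and 41 of 43 under SP600125 were called under every alternative. The others were 3 of 12 for SR11302 and 6 of 11 for SP600125 in B2B, 4 of 9 and 10 of 21 for SP600125 against SR11302 in A549 and in B2B, and 1 of 4 for the interaction. Losses of single calls under an alternative were not traced to a cause.

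For SR11302 in B2B, the members called higher numbered 0 with DESeq2 (edgeR 1), and those called lower 7 with library size only (main scaling 11). For SP600125 in B2B the members lower numbered 2 with no filter and 3 with only the groups compared, in place of 1. For SP600125 against SR11302 in B2B, 1 was lower with median-ratio size factors, with no filter and with only the groups compared, in place of 0. In the interaction the members higher numbered 1 with library size only, 1 with DESeq2 and 0 with only the groups compared, and the members lower 6 with no filter and 1 with only the groups compared, in place of 2 each. With 0 counts as the floor, 18 members in A549_SR11302, 6 in B2B_SR11302 and 24 in A549_SP600125 were at it.

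On leaving out 1 library at a time, members lower and higher in A549 than in B2B numbered 39 to 41 and 1 under SR11302, and 41 to 44 and 1 under SP600125. SR11302 in B2B gave 3 to 12 lower and 0 higher, and SP600125 in B2B 5 to 11 higher and 1 to 2 lower. SP600125 against SR11302 gave 3 to 5 higher and 1 to 3 lower in A549, and 12 to 22 higher and 0 lower in B2B. The interaction gave 0 to 1 higher and 1 to 6 lower. A lone library of a group was assumed to vary like the other groups.

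Replicate numbers were shared by all groups. Deviations of same-numbered libraries were related in some pairs of groups, but not in a common direction. Over 15 pairs their correlation ran from -0.606 (A549_SR11302 with B2B_SR11302) to 0.568 (A549_NT with A549_SR11302), and 4 pairs exceeded 0.1. That of A549_NT with B2B_SR11302 was -0.502. With the replicate block, 0 members were higher for SR11302 in B2B and 1 was higher in the interaction, 9 were lower for SR11302 and 9 higher for SP600125 in B2B, and the line comparisons gave 41 and 42 lower.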
